A study of Homo sapiens with 44 samples.

Results

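Amino acid transporters of the solute carrier (SLC) families were followed in VCaP xenograft tumors of mice given enzalutamide, ARN-509 or vehicle. The genes were chosen by symbol from the SLC1A, SLC3A, SLC6A, SLC7A, SLC36A, SLC38A and SLC43A families, without SLC7A14, and had to reach at least 1 CPM (a count scaled to the size of its library) in 14 or more of 43 libraries. Of the 58 rows of these families, 34 passed, among 13986 genes that passed the same filter. SLC7A4, at 1 CPM in 14 libraries, and SLC38A4, in 27, were the members nearest the filter, and SLC7A10 in 9, SLC1A7 in 8 and SLC6A4 in 6 libraries lay just outside it. The members were 4 of 7 SLC1A rows, 2 of 2 SLC3A, 5 of 19 SLC6A, 9 of 12 SLC7A, 2 of 4 SLC36A, 9 of 11 SLC38A and 3 of 3 SLC43A. The filter took no account of the arms, although a gene could pass through a single arm.

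VCaP cells, an established line from a human prostate cancer metastasis, carry an amplified androgen receptor gene and the TMPRSS2-ERG fusion, and passage p61 was grown in HSD:Athymic Nude–Foxn1nu mice, which lack a thymus. All mice of all arms had been castrated, and dosing began once serum PSA was back at its value from before castration, so the vehicle tumors were castration-resistant as well. Enzalutamide was given to 14 mice and ARN-509, also called apalutamide, to 15 mice, and 15 mice were given vehicle. Each drug was dosed at 20 mg/kg/day by gavage, and treatment lasted 4 weeks. Both drugs are antiandrogens that bind the androgen receptor. Libraries held 4723513 to 16903189 counts in 13 enzalutamide tumors, 3377450 to 30125004 in ARN-509 tumors and 4187464 to 25849380 in vehicle tumors. Enzalutamide 4 held 80142 counts and was left out of all levels and tests unless stated. Vehicle 8 and vehicle 10 stood apart from their arm, with a Pearson r of log2 CPM with the rest of the arm of 0.893 and 0.919, against at least 0.957 for the other 41 libraries. All tumors come from 1 cell line. These are bulk samples, in which fewer cells of a type and less RNA per cell cannot be told apart. Of 12 prostate tumor cell markers all were measured, with a summed level of 14893 to 21479 CPM under enzalutamide, 14729.8 to 21097 CPM under ARN-509 and 9725 to 18267 CPM under vehicle, and 2 were higher and 1 lower with enzalutamide, 2 higher and 5 lower with ARN-509. Endothelial markers summed to 0.417 to 2.75 CPM under enzalutamide, 0.213 to 1.71 CPM under ARN-509 and 1.91 to 6.95 CPM under vehicle. The gap lay mostly in VWF, with means of 0.418, 0.227 and 2.92 CPM in the same order of arms. PECAM1 had means of 0.775, 0.66 and 0.985 CPM, and TEK went the other way (0.113, 0.0948 and 0.0678 CPM). CDH5, KDR and ROBO4 had means of at most 0.048 CPM in any arm. Fibroblast markers summed to 5.88 to 24.5 CPM, 5.71 to 23.8 CPM and 6.71 to 36.1 CPM in the same order of arms. Markers of macrophages and leukocytes summed to at most 11.6 CPM and those of erythrocytes to at most 2.07 CPM in any tumor, and CD3E had no count. Of the endothelial genes VWF alone was tested and was lower with each drug (log2 fold change -2.78 and -3.60), and of 3 tested fibroblast genes FBN1 was lower with each (-1.10 and -0.73) and PDGFRA with ARN-509 (-1.92). Of 6 tested neuroendocrine genes, NCAM1 and ENO2 were higher with ARN-509 (0.77 and 0.51), ENO2 not without ARN-509 4 or ARN-509 11. The part of the non-tumor cells in the transporter results was not tested.

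Amino acids are polar and cross membranes through carriers, several of which exchange one amino acid for another or use the gradient of sodium or protons. SLC7A light chains form heterodimers with an SLC3A heavy chain that brings them to the surface, while SLC1A, SLC6A, SLC38A and SLC43A carriers work without such a partner. In prostate cancer cells, glutamine uptake through SLC1A5 and leucine uptake through SLC7A5 and SLC43A1 are known to feed mTORC1 signalling and growth, and SLC43A1 was first described as a gene overexpressed in prostate cancer. Supply of amino acids is also sensed at the lysosome, where SLC38A9 and SLC36A1 act.

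The lines after this paragraph show promoter windows of SLC1A5, SLC36A1 and SLC43A1, since each of these genes was lower than vehicle with enzalutamide and with ARN-509. The sequences are RefSeq's on GRCh38.p14 and run from 250 bases before to 50 bases after a transcription start site. Where a gene had several windows, the one with the most CACGTG matches was taken, so their presence here is set by that choice. Capitals mark CACGTG, the E-box bound by MYC and related factors.
SLC1A5, chr19:46787244-46787543, minus strand: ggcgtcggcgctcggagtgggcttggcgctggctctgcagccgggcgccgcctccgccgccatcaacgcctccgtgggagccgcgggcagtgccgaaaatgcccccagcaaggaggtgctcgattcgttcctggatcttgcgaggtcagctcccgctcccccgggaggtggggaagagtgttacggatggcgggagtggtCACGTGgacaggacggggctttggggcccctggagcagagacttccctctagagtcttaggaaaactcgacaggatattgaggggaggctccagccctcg
SLC36A1, chr5:151447353-151447652, plus strand: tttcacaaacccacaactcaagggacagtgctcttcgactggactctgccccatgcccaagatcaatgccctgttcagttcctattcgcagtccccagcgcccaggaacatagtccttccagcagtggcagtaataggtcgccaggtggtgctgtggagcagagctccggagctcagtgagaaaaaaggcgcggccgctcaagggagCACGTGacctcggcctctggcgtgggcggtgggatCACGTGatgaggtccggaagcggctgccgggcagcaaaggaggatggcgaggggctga
SLC43A1, chr11:57515653-57515952, minus strand: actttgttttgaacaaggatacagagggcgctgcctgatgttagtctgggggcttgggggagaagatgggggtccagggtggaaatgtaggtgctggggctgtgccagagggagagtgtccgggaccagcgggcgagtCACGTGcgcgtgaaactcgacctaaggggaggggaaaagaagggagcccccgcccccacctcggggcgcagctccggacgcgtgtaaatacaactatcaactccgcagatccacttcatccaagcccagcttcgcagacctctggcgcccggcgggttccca
The match began 50 bases before the start site in the SLC1A5 window, 43 and 8 bases before it in the SLC36A1 window and 112 bases before it in the SLC43A1 window. SLC1A5 has other windows without this match, as have SLC36A1 and SLC43A1. For SLC1A5 a window without it, chr19:46788545-46788844, lies upstream of the one shown. The same holds for SLC36A1, with chr5:151436796-151437095. In these 2 genes the match therefore lies at a start site that is not the most upstream one.

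Windows were used for 26 of the 34 members, 45 windows in all, and both strands were searched. Member windows on chr8 were left out, while the count over all windows kept chr8. CACGTG stood in 7 of the 45 windows, or 15.6%, and in 7.26% of all 35116 windows in the table. The core TGATGNAA of the element bound by C/EBP and ATF factors, through which ATF4 acts when amino acids are short, stood in 5 member windows, or 11.1%, and in 3.62% of all windows. These 5 windows belonged to SLC1A4, SLC1A5, SLC38A1, SLC3A2 and SLC7A1. TGTTCT, one side of the androgen response element, stood in 11.1% of member windows and 14.8% of all windows, and the whole palindromic element in 0 of the 45 and 0.00285% of all. TGACNNNGC, the core of the antioxidant response element, stood in 13.3% of member windows and 13.3% of all. Any whole androgen response element also counts as a TGTTCT match, CACGTG reads the same on both strands, and a match is a description of letters and not of binding.

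Per length of transcript, SLC1A5, the sodium-dependent exchanger of neutral amino acids that takes up glutamine, had the highest level of the 34 genes. Its level was 83.6 ± 13.8 CPM per kb under enzalutamide, 70.004 ± 10.4 under ARN-509 and 107 ± 14.9 under vehicle (SD, n = 13, 15 and 15). SLC38A2, a sodium-coupled carrier of small neutral amino acids that many cells raise when starved of them, came next with 41.3 ± 6.54, 53.3 ± 6.89 and 46.5 ± 10.3 CPM per kb in the same arms. The creatine transporter SLC6A8 followed with 36.9 ± 6.65, 34.2 ± 5.41 and 36.4 ± 9.06 CPM per kb. Below these came a group of near neighbours over all 43 tumors, SLC7A2 at 25.5, SLC3A2 at 25.2, SLC7A1 at 21.1, SLC43A1 at 21.0 and SLC38A1 at 19.6 CPM per kb, whose order lies within their spread. SLC7A5, the leucine carrier LAT1, had only 0.632 CPM per kb and ranked 31 of 34, below its heavy chain SLC3A2. The members together held a summed level of 1308 to 1893 CPM under enzalutamide (median 1542), 1311 to 2020 CPM under ARN-509 (median 1673) and 1501 to 2078 CPM under vehicle (median 1801). SLC1A5 made up 15.5% of that sum under enzalutamide, 12.1% under ARN-509 and 17.3% under vehicle.

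**Figure D1:**
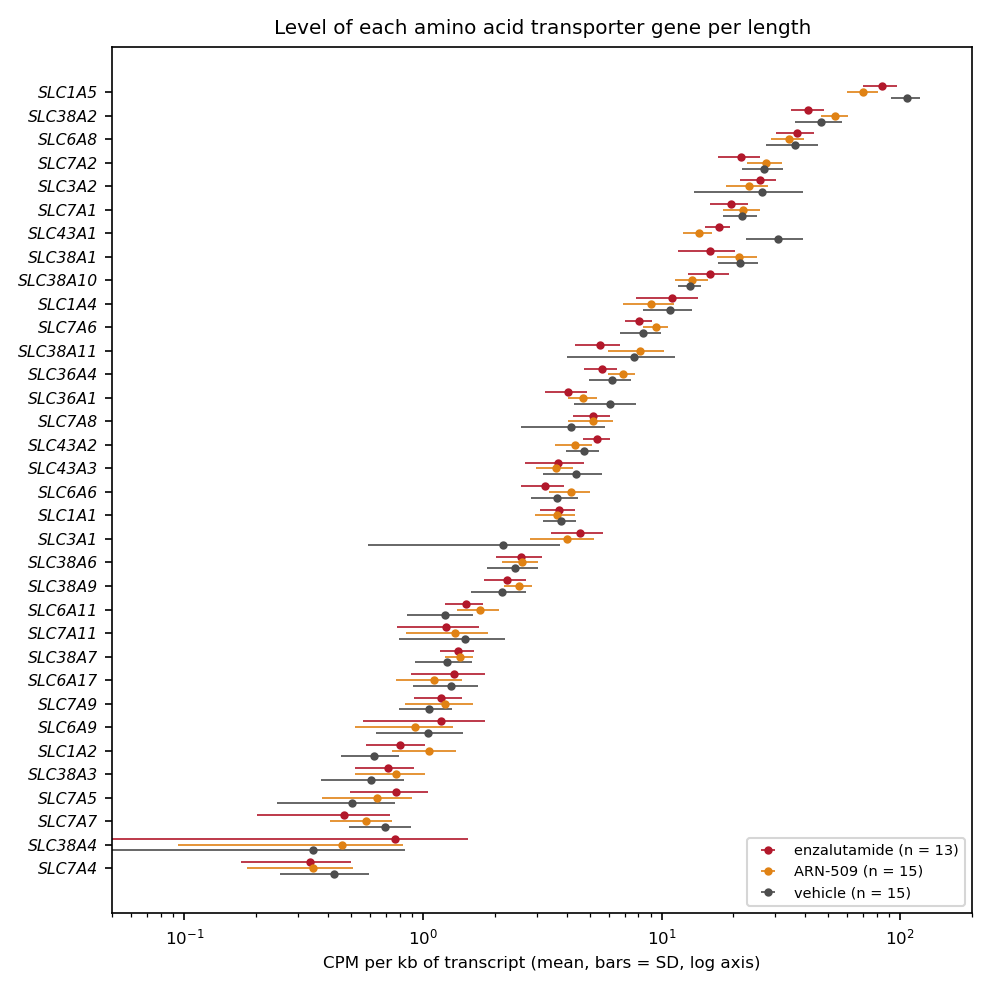
Mean CPM per kb of transcript (log axis) of the 34 genes in enzalutamide, ARN-509 and vehicle tumors; bars are SD and are cut at the left edge where the SD exceeds the level. SLC1A5 stands at the top in every arm, and SLC7A5 near the bottom.

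With enzalutamide, 9 of the 34 members differed from vehicle at an adjusted p under 0.05, 2 higher and 7 lower, against 10.6% of all 13986 genes (4.69% higher and 5.89% lower). With ARN-509, 6 of 34 differed, 3 higher and 3 lower, against 30.1% of all genes (13.9% higher and 16.3% lower), so the members' share lay below that background. Both comparisons use the same 15 vehicle tumors, and the values of each are given side by side. The median log2 fold change of the members was -0.0016 with enzalutamide and 0.026 with ARN-509, beside -0.012 and -0.0044 over all genes. A change of at least 2-fold was called for 1 member with each drug, beside 206 genes (1.47% of those tested) with enzalutamide and 217 (1.55%) with ARN-509, so 1 of 34 is near the background. For 30 of the 34 members with each drug, the 95% interval of the fold change lay within 2-fold.

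**Figure D2:**
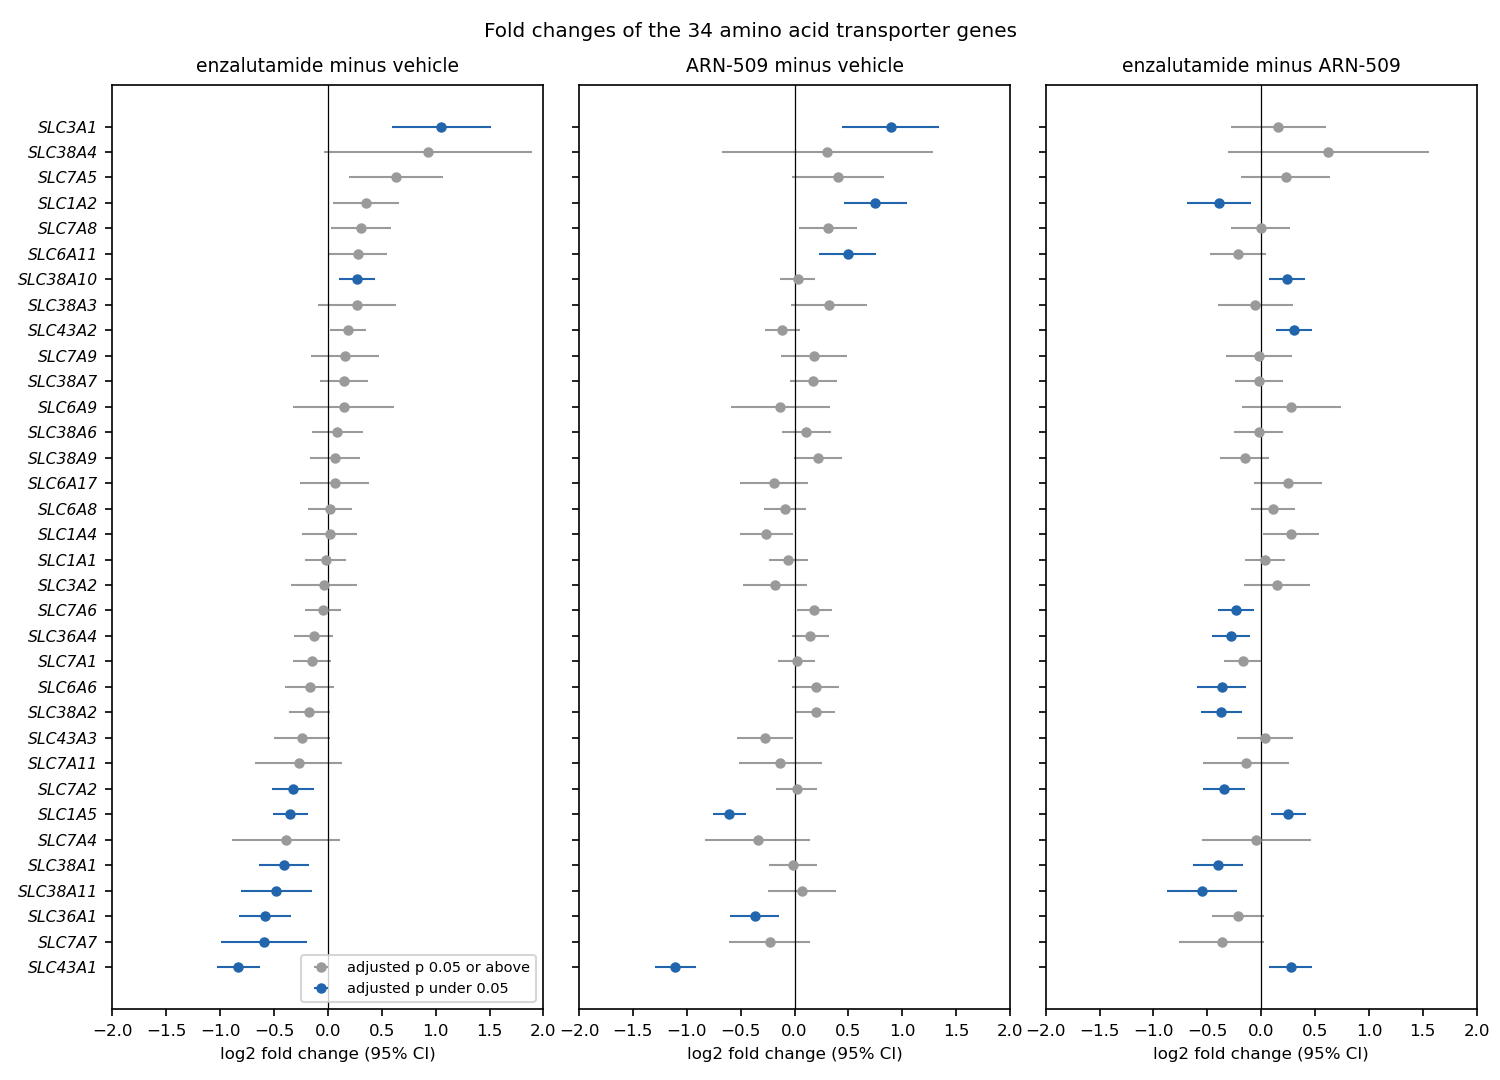
Log2 fold changes with 95% intervals of the 34 genes for enzalutamide against vehicle, ARN-509 against vehicle and enzalutamide against ARN-509 (first over second), ordered by the first; blue marks an adjusted p under 0.05 in edgeR's quasi-likelihood test. SLC43A1 is lowest and SLC3A1 highest of the genes in blue in both comparisons with vehicle.

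Among the members, SLC43A1 (LAT3) had the smallest adjusted p with each drug. It lets leucine and other large neutral amino acids through the membrane along their gradient and is known as an androgen-induced gene of prostate cancer cells. Its level was 37.1 to 56.9 CPM (median 43.2) in enzalutamide tumors and 30.9 to 49.0 CPM (median 36.2) in ARN-509 tumors, against 55.4 to 123 CPM (median 73.9) in vehicle tumors. Every ARN-509 tumor lay below every vehicle tumor, and 12 of 13 enzalutamide tumors lay below the lowest vehicle tumor. The log2 fold change was -0.83 ± 0.10 (SE; adjusted p = 3.64e-08) with enzalutamide and -1.11 ± 0.10 (adjusted p = 1.60e-11) with ARN-509, which leaves 0.562 and 0.465 of the vehicle level. SLC43A2 (LAT4), a leucine uniporter, had log2 fold changes of 0.19 ± 0.08 (adjusted p = 0.149) with enzalutamide and -0.11 ± 0.08 (adjusted p = 0.288) with ARN-509, and SLC43A3, known as a carrier of purine bases, had -0.24 ± 0.13 and -0.27 ± 0.13 (adjusted p = 0.257 and 0.0936). Without vehicle 10 the ARN-509 value of SLC43A3 was -0.32 with an adjusted p of 0.032.

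SLC1A5 fell with each drug. Its level was 176 to 314 CPM (median 247) in enzalutamide tumors and 161 to 259 CPM (median 204) in ARN-509 tumors, against 253 to 407 CPM (median 308) in vehicle tumors. Under ARN-509, 14 of 15 tumors lay below the lowest vehicle tumor, and under enzalutamide 8 of 13 did. The log2 fold change was -0.35 ± 0.08 (adjusted p = 0.00214) with enzalutamide and -0.60 ± 0.08 (adjusted p = 1.07e-07) with ARN-509. SLC1A4 (ASCT1), the closest relative, which exchanges alanine, serine and cysteine, had log2 fold changes of 0.02 ± 0.13 and -0.26 ± 0.12 with adjusted p of 0.958 and 0.103. Without vehicle 13 the ARN-509 value of SLC1A4 was -0.31, with an adjusted p of 0.0478.

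SLC36A1 (PAT1), a proton-coupled exporter of small amino acids on lysosomes that is also found at the cell surface, fell as well. It had 15.1 to 33.7 CPM (median 23.6) in enzalutamide tumors and 19.1 to 33.2 CPM (median 27.4) in ARN-509 tumors, against 18.2 to 58.6 CPM (median 37.98) in vehicle tumors. The arms overlapped, since the 2 lowest vehicle tumors lay at 18.2 and 19.0 CPM, but all 13 enzalutamide and all 15 ARN-509 tumors lay below the vehicle median. The log2 fold change was -0.58 ± 0.12 (adjusted p = 4.93e-04) and -0.37 ± 0.11 (adjusted p = 0.0123). With libraries thinned to the lowest depth, the ARN-509 value was -0.34 with an adjusted p of 0.069. SLC36A4, a high-affinity relative, had log2 fold changes of -0.13 ± 0.09 and 0.15 ± 0.09 (adjusted p = 0.374 and 0.191).

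**Figure D3:**
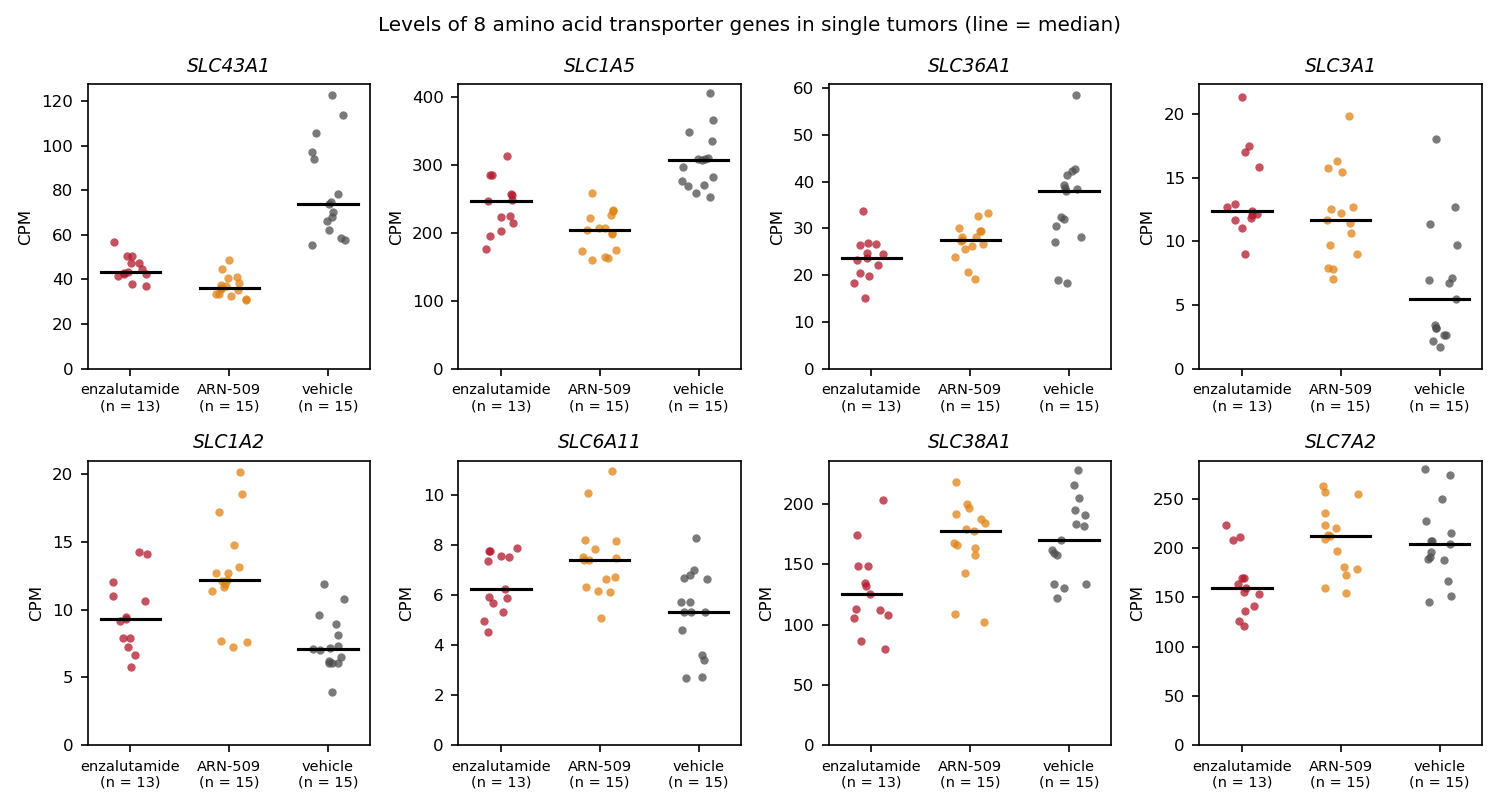
CPM of 8 members in single enzalutamide (n = 13), ARN-509 (n = 15) and vehicle (n = 15) tumors, with the median as a line. SLC43A1 separates ARN-509 from vehicle tumors without overlap, and SLC3A1 spreads from 1.71 to 18.1 CPM among vehicle tumors.

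SLC3A1 (rBAT) rose with each drug. It is the heavy chain of the kidney and gut exchanger of cystine and basic amino acids, whose loss causes cystinuria. Its level was 9.02 to 21.4 CPM (median 12.4) in enzalutamide tumors and 7.01 to 19.9 CPM (median 11.7) in ARN-509 tumors, against 1.71 to 18.1 CPM (median 5.45) in vehicle tumors. All drug-treated tumors lay above the vehicle median, while the vehicle tumors spread widely up to vehicle 10 at 18.1 CPM. The log2 fold change was 1.05 ± 0.23 (adjusted p = 0.00113) with enzalutamide and 0.89 ± 0.22 (adjusted p = 0.00251) with ARN-509. Exons of SLC3A1 overlap those of PREPL on the other strand. The library kit does not mark strand, so strand cannot tell which gene a read of the overlap came from. PREPL had log2 fold changes of -0.03 ± 0.10 (adjusted p = 0.895) with enzalutamide and 0.38 ± 0.10 (adjusted p = 0.00339) with ARN-509, and its level was 74.3 to 134 CPM under enzalutamide, 96.9 to 170.0 CPM under ARN-509 and 57.6 to 160 CPM under vehicle. SLC7A9, the light chain that pairs with SLC3A1, stayed low, with 1.29 to 2.80 CPM under enzalutamide, 0.760 to 3.21 CPM under ARN-509 and 1.07 to 2.83 CPM under vehicle. Its log2 fold changes were 0.16 ± 0.16 and 0.18 ± 0.15 (adjusted p = 0.589 and 0.384).

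The other heavy chain, SLC3A2 (CD98), had 45.3 to 75.3 CPM under enzalutamide, 30.4 to 70.2 CPM under ARN-509 and 31.9 to 138 CPM under vehicle, with the 2 highest vehicle values in vehicle 12 and vehicle 8. Its log2 fold changes were -0.03 ± 0.15 and -0.18 ± 0.15 (adjusted p = 0.922 and 0.355), with 95% intervals of -0.34 to 0.27 and -0.48 to 0.12. Among its light chains, SLC7A5 had 1.89 to 6.62 CPM (median 3.35) under enzalutamide and 1.04 to 4.82 CPM (median 2.89) under ARN-509, against 0.892 to 5.60 CPM (median 1.97) under vehicle. Its log2 fold change with enzalutamide was 0.63 ± 0.22, and the adjusted p of 0.0511 lay just past the threshold. It passed when any of 14 single libraries was left out, down to 0.00947 without vehicle 12, where the value was 0.77. With ARN-509 it was 0.40 ± 0.21 (adjusted p = 0.143), and without vehicle 12 it was 0.54 (adjusted p = 0.041). The near-copy SLC7A5P2 had log2 fold changes of -0.18 ± 0.19 and 0.08 ± 0.18, and reads shared with such copies may be missing from SLC7A5.

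SLC7A7, the light chain that exports basic amino acids in exchange for neutral ones with sodium, was near the filter, with 0.161 to 2.92 CPM (median 1.14) under enzalutamide and 0.764 to 1.99 CPM (median 1.49) under ARN-509, against 1.14 to 2.90 CPM (median 1.54) under vehicle. Its log2 fold change with enzalutamide was -0.60 ± 0.20 (adjusted p = 0.0439), and this call was lost when any of 14 single vehicle or enzalutamide libraries was left out (adjusted p 0.0506 to 0.0912). With ARN-509 it was -0.23 ± 0.19 (adjusted p = 0.351). SLC7A6, which performs the same kind of exchange, had 41.5 to 62.6 CPM under enzalutamide, 49.5 to 71.3 CPM under ARN-509 and 35.8 to 70.4 CPM under vehicle, with log2 fold changes of -0.05 ± 0.08 and 0.18 ± 0.08 (adjusted p = 0.784 and 0.0698). The ARN-509 value of SLC7A6 passed without vehicle 1, vehicle 2, vehicle 10 or ARN-509 5 (0.20 to 0.22, adjusted p 0.0232 to 0.0488). Exons of SLC7A6 overlap those of SLC7A6OS on the other strand. SLC7A8 (LAT2) had log2 fold changes of 0.31 ± 0.14 and 0.31 ± 0.13 (adjusted p = 0.159 and 0.0742). Without vehicle 12 the enzalutamide value passed at 0.41 (adjusted p = 0.0232), and the ARN-509 value passed without vehicle 10, vehicle 12 or ARN-509 6 (0.34 to 0.42, adjusted p 0.00902 to 0.0498). SLC7A11 (xCT), which trades glutamate for cystine, had -0.27 ± 0.20 and -0.13 ± 0.19 (adjusted p = 0.437 and 0.625).

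Within the arms, the log2 CPM of heavy and light chains were compared across tumors in 6 pairs and 3 arms, 18 correlations in all. Of these, 0 passed an adjusted p of 0.05 in a two-sided permutation test with 100000 resamples, for Pearson's r or Spearman's rho, and 2 had an unadjusted p under 0.05 for Pearson's r. These were SLC3A2 with SLC7A6 in vehicle tumors (r = -0.536, rho = -0.504, n = 15, permutation p = 0.0401, adjusted 0.424) and SLC3A1 with SLC7A9 in enzalutamide tumors (r = -0.556, rho = -0.385, n = 13, permutation p = 0.0471, adjusted 0.424). Without the 2 tumors farthest from the median of the heavy chain, r was -0.508 and -0.527. With each library's GC and length dependence taken out, r was -0.260 (permutation p = 0.357) and -0.577 (permutation p = 0.0393, adjusted 0.2355) for these pairs. SLC3A2 with SLC7A11 then had an r of 0.606 in enzalutamide tumors (n = 13, permutation p = 0.0283, adjusted 0.2355) and 0.686 in vehicle tumors (n = 15, permutation p = 0.00555, adjusted 0.0999), against 0.404 and 0.254 before, and 0 of the 18 passed after adjustment.

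The cationic amino acid carriers SLC7A1 and SLC7A2, which bring in arginine and lysine without a heavy chain, were both abundant. SLC7A2 had 121 to 223 CPM (median 159.7) under enzalutamide and 155 to 263 CPM (median 212) under ARN-509, against 146 to 281 CPM (median 204) under vehicle. Its log2 fold change was -0.33 ± 0.10 (adjusted p = 0.0219) with enzalutamide and 0.02 ± 0.09 (adjusted p = 0.897) with ARN-509. The arms overlapped, with 4 of 13 enzalutamide tumors below the lowest vehicle tumor. Without vehicle 1 the value with enzalutamide was -0.29 with an adjusted p of 0.0501. SLC7A1 had 102 to 208 CPM under enzalutamide, 110.1 to 236 CPM under ARN-509 and 116 to 229.7 CPM under vehicle, with log2 fold changes of -0.15 ± 0.09 and 0.02 ± 0.09 (adjusted p = 0.319 and 0.865).

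Of the 9 SLC38A members, sodium-coupled carriers of neutral amino acids and their relatives, 3 differed with enzalutamide. With ARN-509 edgeR called 0 of 9, with 1 at an unadjusted p under 0.05, while DESeq2 called 0 and limma 2. Over all genes 10.6% were called with enzalutamide and 30.1% with ARN-509, and whether the family differed between the drugs as a group was not tested. SLC38A1, which imports glutamine, had 79.8 to 203 CPM (median 126) under enzalutamide and 102 to 218 CPM (median 178) under ARN-509, against 122 to 229 CPM (median 170.3) under vehicle. Its log2 fold change was -0.41 ± 0.12 (adjusted p = 0.0142) with enzalutamide and -0.01 ± 0.11 (adjusted p = 0.947) with ARN-509. With enzalutamide 6 of 13 tumors lay below the lowest vehicle tumor.

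SLC38A2 had 139 to 269 CPM (median 197) under enzalutamide, 194 to 308 CPM (median 257) under ARN-509 and 150.1 to 341 CPM (median 221) under vehicle, with log2 fold changes of -0.17 ± 0.09 and 0.20 ± 0.09 (adjusted p = 0.255 and 0.0895). Its ARN-509 value passed without vehicle 1 or vehicle 10 (0.23 and 0.25, adjusted p 0.0480 and 0.0193). SLC38A10, a carrier of glutamine, glutamate and aspartate in mouse brain, was higher with enzalutamide. It had 43.4 to 102 CPM (median 66.2) under enzalutamide and 39.9 to 72.4 CPM (median 56.3) under ARN-509, against 46.9 to 66.5 CPM (median 56.4) under vehicle, with 6 of 13 enzalutamide tumors above the highest vehicle tumor. The log2 fold changes were 0.27 ± 0.08 (adjusted p = 0.0281) and 0.03 ± 0.08 (adjusted p = 0.798), and the first lost its call without vehicle 9 (0.25, adjusted p = 0.0503) or enzalutamide 1 (0.22, adjusted p = 0.0625). SLC38A11, whose substrates are little studied, had 14.15 to 30.2 CPM (median 19.8) under enzalutamide and 19.5 to 43.6 CPM (median 29.8) under ARN-509, against 15.6 to 70.8 CPM (median 24.9) under vehicle, where vehicle 10 was the highest. Its log2 fold change with enzalutamide was -0.48 ± 0.16 (adjusted p = 0.0499), a call lost without any of 28 single libraries, and -0.32 (adjusted p = 0.137) without vehicle 10; with ARN-509 it was 0.07 ± 0.16. SLC38A9, the lysosomal arginine sensor of mTORC1, had log2 fold changes of 0.07 ± 0.11 and 0.22 ± 0.11 (adjusted p = 0.782 and 0.127).

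The glutamate transporter SLC1A2, best known for clearing glutamate in the brain, rose with ARN-509. It had 5.77 to 14.2 CPM (median 9.29) under enzalutamide and 7.27 to 20.2 CPM (median 12.2) under ARN-509, against 3.92 to 11.9 CPM (median 7.12) under vehicle. Under ARN-509 10 of 15 tumors lay above the highest vehicle tumor and all lay above the vehicle median. The log2 fold changes were 0.35 ± 0.15 (adjusted p = 0.137) with enzalutamide and 0.75 ± 0.15 (adjusted p = 1.66e-04) with ARN-509. After the dependence on GC content and length was taken out of each library, the enzalutamide value was 0.42 with an adjusted p of 0.0321, and with libraries thinned to the lowest depth it was 0.73 with an adjusted p of 0.0182. SLC1A1, the other glutamate carrier, had -0.02 ± 0.09 and -0.06 ± 0.09 (adjusted p = 0.929 and 0.663).

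Of the 5 SLC6A members, which carry neurotransmitters and osmolytes with sodium and chloride, 1 was called with ARN-509. With enzalutamide edgeR called 0 of 5, with 1 at an unadjusted p under 0.05, and DESeq2 and limma called 0. The shares over all genes were 30.1% with ARN-509 and 10.6% with enzalutamide, and the family as a group was not tested. SLC6A11, a carrier of GABA, had 4.51 to 7.88 CPM (median 6.25) under enzalutamide and 5.09 to 10.97 CPM (median 7.40) under ARN-509, against 2.70 to 8.31 CPM (median 5.35) under vehicle, with log2 fold changes of 0.28 ± 0.13 (adjusted p = 0.190) and 0.49 ± 0.13 (adjusted p = 0.0039). The arms overlapped, with 2 ARN-509 tumors above the highest vehicle tumor, and at the lowest common depth the ARN-509 value was 0.45 with an adjusted p of 0.132. SLC6A8, the most abundant of the family, had 95.03 to 172 CPM under enzalutamide, 103 to 170.1 CPM under ARN-509 and 96.4 to 226 CPM under vehicle, with log2 fold changes of 0.02 ± 0.10 and -0.09 ± 0.10 (adjusted p = 0.927 and 0.514). The taurine transporter SLC6A6 had -0.17 ± 0.11 and 0.20 ± 0.11 (adjusted p = 0.378 and 0.158). Its exons overlap those of GRIP2 on the other strand, and GRIP2 was itself called with ARN-509 against vehicle (edgeR, adjusted p = 0.0154). The share of GRIP2 reads in the SLC6A6 counts was not tested.

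Enzalutamide and ARN-509 are both diarylthiohydantoins; ARN-509 carries a spiro-cyclobutyl ring in place of the paired methyl groups of enzalutamide, and a pyridine in place of a benzene ring. They were given at the same dose and for the same time, so their tumors were also compared with each other, in 1 pair of drugs. Of the 34 members, 12 differed, 4 higher under enzalutamide and 8 lower than under ARN-509, against 25.4% of all genes (11.1% higher and 14.3% lower). SLC38A2 was lower (log2 difference -0.37 ± 0.09, adjusted p = 0.00625), as were SLC7A2 (-0.34 ± 0.10, adjusted p = 0.0112), SLC38A1 (-0.40 ± 0.12, adjusted p = 0.0124) and SLC38A11 (-0.55 ± 0.16, adjusted p = 0.0146). SLC6A6, at 12.9 to 26.7 CPM (median 22.6) under enzalutamide and 17.2 to 34.2 CPM (median 29.2) under ARN-509, was lower by the same test (-0.37 ± 0.11, adjusted p = 0.0167). So was SLC36A4, at 21.9 to 42.5 CPM (median 34.7) and 30.3 to 49.7 CPM (median 41.0) in the same arms (-0.28 ± 0.09, adjusted p = 0.0199). SLC43A2 was higher (0.30 ± 0.08, adjusted p = 0.00953), at 34.9 to 55.0 CPM (median 44.5) under enzalutamide and 26.9 to 45.2 CPM (median 34.9) under ARN-509. SLC1A5 was higher as well (0.25 ± 0.08, adjusted p = 0.0197). The remaining calls were SLC38A10 (0.24), SLC43A1 (0.27), SLC7A6 (-0.23) and SLC1A2 (-0.40). For 33 of the 34 members the 95% interval of this difference lay within 2-fold. SLC3A1 and SLC36A1, called against vehicle with each drug, differed between the drugs by 0.16 (95% interval -0.28 to 0.60) and -0.21 (-0.45 to 0.03).

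The difference between the drugs went along with base composition. The 4 members that were higher had GC contents of 58.2 to 64.35%, and the 8 that were lower had 35.0 to 51.0%. Spearman's rho between the log2 difference and GC content was 0.557 across the 34 members and 0.606 across the 13372 genes with a known GC content, as a description across genes, which share their libraries. Against vehicle, rho across the 13372 genes was -0.416 with ARN-509 and 0.199 with enzalutamide. Across the 34 members it was -0.288 and 0.183. The slope of each library's log2 CPM on GC content, per SD of GC content and relative to the mean library, was -0.052 to 0.288 (median 0.031) under enzalutamide and -0.283 to 0.095 (median -0.076) under ARN-509. After the dependence on GC content and length was taken out of each library, all 12 values kept their sign and became smaller, and 1 of the 12 stayed past the threshold, SLC43A2 (0.29 ± 0.08, adjusted p = 0.0202). For SLC38A11, SLC6A6 and SLC38A2 the adjusted p was then 0.0631, 0.0557 and 0.0635, and for SLC36A4 the difference was -0.01. Whether the trend arose in the tumors or in the libraries was not tested. The calls of SLC43A1, SLC1A5, SLC36A1 and SLC3A1 against vehicle held with the trend removed (-0.85, -0.39, -0.56 and 1.09 with enzalutamide, -0.996, -0.471, -0.39 and 0.83 with ARN-509). At single-library level, the calls of SLC1A2, SLC43A1, SLC7A6 and SLC38A10 between the drugs were lost without any of 16, 10, 7 and 3 libraries, with adjusted p up to 0.0934, 0.0687, 0.0637 and 0.0717.

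**Figure D4:**
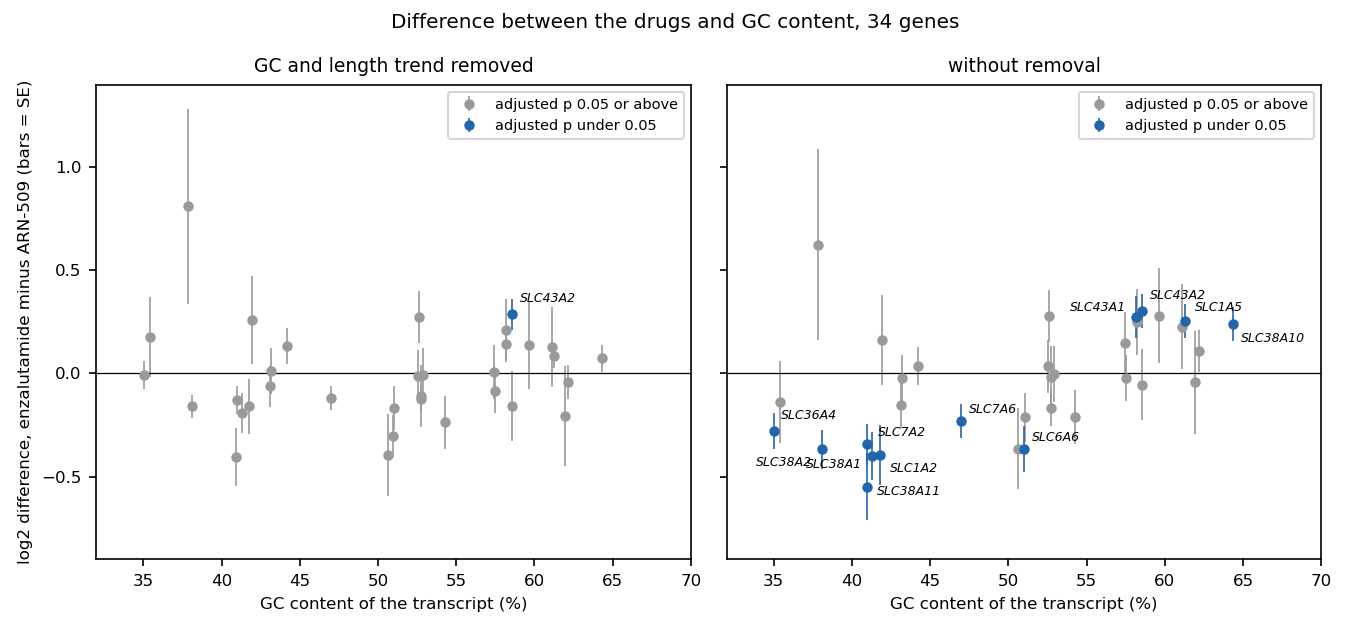
Log2 difference enzalutamide minus ARN-509 with SE (y axis) against GC content of the transcript in percent (x axis) for the 34 genes, with each library's GC and length trend removed (left) and without removal (right); blue marks an adjusted p under 0.05. Without removal 12 genes are blue, low ones at low and high ones at high GC content, and with removal SLC43A2 alone is.

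Other genes that handle amino acids changed in part. Of 15 tested amino acid carriers of other SLC families, 2 were lower with enzalutamide, and 1 was higher and 4 lower with ARN-509. The call of SLC16A10, which carries aromatic amino acids, with enzalutamide (-0.36) was lost without vehicle 3, enzalutamide 1, enzalutamide 5 or enzalutamide 9, and that of SLC25A22 with ARN-509 (-0.28) without vehicle 8. These 2 calls, and those of SLC25A12 and CTNS with ARN-509, were also lost with each library's GC and length trend removed. The mitochondrial aspartate-glutamate carrier SLC25A13 was lower with each drug (-0.23 ± 0.05 and -0.28 ± 0.05, adjusted p = 0.00187 and 5.94e-05). Of 18 genes of the amino acid starvation response, 3 were lower with ARN-509. With enzalutamide edgeR called 0 of them, with 1 at an unadjusted p under 0.05, while DESeq2 called 0 and limma 1. ATF4, the transcription factor that drives that response, was lower with ARN-509 (-0.34 ± 0.08, adjusted p = 0.00219; enzalutamide -0.17 ± 0.09, adjusted p = 0.241), as was TRIB3 (-0.56 ± 0.12, adjusted p = 3.95e-04). The third, DDIT3, had an adjusted p of 0.0498 and lost its call in 42 of the 56 alternative fits. The asparagine synthetase gene ASNS, a textbook ATF4 target, had -0.03 ± 0.07 and -0.11 ± 0.07 (adjusted p = 0.869 and 0.261). Of 35 genes of amino acid sensing by mTORC1, 6 were higher and 5 lower with ARN-509, while with enzalutamide edgeR called 0, with 4 at an unadjusted p under 0.05, DESeq2 0 and limma 5. Among those lower with ARN-509 was SEC13, a subunit shared with the nuclear pore (-0.33 ± 0.07, adjusted p = 2.55e-04). In this list, the ARN-509 calls of RRAGD, LAMTOR2, LAMTOR3, C7orf59 and MLST8 were lost once each library's GC and length trend was removed.

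Of 17 genes of glutamine and glutamate metabolism, 5 were lower with ARN-509, and the others did not pass. GOT1, the cytosolic aspartate aminotransferase, was lower with each drug (-0.30 ± 0.09 and -0.51 ± 0.09, adjusted p = 0.0253 and 1.97e-05), and the enzalutamide value lost its call without vehicle 7, vehicle 8 or enzalutamide 12. Of 14 genes of cystine and glutathione handling, 3 were lower with enzalutamide, and 1 was higher and 7 lower with ARN-509. NFE2L2, which encodes the regulator NRF2, was lower with each drug (-0.58 ± 0.09 and -0.41 ± 0.08, adjusted p = 3.14e-06 and 2.14e-04). Of 14 tested genes of branched-chain amino acid catabolism, 1 was lower with enzalutamide, and 2 were higher and 4 lower with ARN-509. That one was MCCC2, a subunit of the carboxylase in leucine breakdown, at 139 to 554 CPM under enzalutamide and 275 to 708 CPM under ARN-509, against 339 to 1393 CPM under vehicle (-1.30 ± 0.20 and -0.95 ± 0.19, adjusted p = 5.29e-06 and 1.98e-04). Of 9 tested genes of creatine, taurine and betaine handling, 1 was lower with enzalutamide and 2 with ARN-509, and the others did not pass. CHDH, which makes betaine from choline, was lower with each (-0.41 ± 0.09 and -0.30 ± 0.09, adjusted p = 0.00127 and 0.0078), and CKMT1B, a mitochondrial creatine kinase, with ARN-509 (-0.27), a call lost without vehicle 8. Removal of each library's GC and length trend ended the ARN-509 calls of GPX4, KEAP1, BCAT2, DBT, BCKDK, ACADSB and CKMT1B. The shares of all genes called, given above, are the background for the counts of these lists.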

How the data were processed

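The authors deposited raw read counts per gene for 44 tumors in 1 table. Per the submitters' processing notes the tools were bcl2fastq 1.8.4, TopHat2 2.1.0, Picard 1.77 and HTSeq 0.6.1 with build hg19, and per the labels' protocols the kit was TruSeq RNA v2, which does not mark strand. How reads of the mouse host were treated is not given in the sources used here. From these counts, 43 libraries were fitted in edgeR 4.0.16 (R 4.3.3; TMM scaling, robust quasi-likelihood test), all arms together, with Benjamini-Hochberg adjustment over 13986 genes and a threshold of 0.05. Standard errors were obtained by dividing the size of the log2 fold change by the root of F. Levels are CPM of TMM-scaled totals, except marker sums, which use library totals. Nothing in the labels pairs tumors across arms. Each library was taken as 1 tumor; the labels number the samples and give the same number of mice per arm, without tying samples to mice, so p-values measure the spread between these samples. No pair of libraries within an arm was identical (lowest chi-square per degree of freedom 3.27). Pairs across arms and pairs with enzalutamide 4 were not compared in this way. Counting depth limits low genes, and counts without molecular identifiers are not independent molecules, so counting intervals cover counting error only.

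The members and lists were chosen with earlier results of these data known. Named members were those with the 12 smallest p among the called per comparison with vehicle and 8 between the drugs, partners of these, the 10 highest in mean CPM, and up to 3 genes of each other list. GC content and length came from GENCODE on GRCh38, and correlations used scipy 1.17.1. Alternatives were DESeq2 1.42.0, limma 3.58.1 voom with quality weights, other scalings and filters, no robust estimation, only the arms compared, a replicate block, removal of each library's GC and length trend, thinning, all 44 libraries and leaving out each library. The fits were tested on simulated data. One result is not reported here.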

Additional observations from a re-analysis of the deposited data

Results flagged for a closer look

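Enzalutamide 4 was left out of the comparisons in the report for its 80142 counts. In it, 18 of the 34 transporters had no count, and the 34 together had 54 counts. The taurine transporter SLC6A6 was the 1 member whose whole counting interval lay above the highest vehicle tumor, at 237 CPM of the library total (19 counts, exact Poisson 95% interval 143 to 370.2 CPM, counting error only), against a vehicle maximum of 36.3 CPM and a median of 22.3 CPM in the other 13 enzalutamide tumors. SLC38A9 with 1 count and SLC6A9 with 2 counts were also above the vehicle maximum, at 12.5 against 9.00 CPM and 25.0 against 6.16 CPM, but their intervals reached below it. SLC6A6 is listed because it is a signal in a library outside the report's comparisons; the setting with all 44 libraries includes it. The cause was not tested.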

How the results depend on the processing

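No called log2 fold change of a member changed sign under the 13 alternative settings or when any of 43 libraries was left out. Calls of SLC43A1, SLC1A5, SLC36A1, SLC3A1 and SLC38A1 with enzalutamide held in all 56 of these fits. Over the members' values in the 13 settings, 413 of 441 kept their side of the threshold for enzalutamide minus vehicle, 425 for ARN-509 minus vehicle and 412 for enzalutamide minus ARN-509. For ARN-509 minus vehicle limma called 11 members. Between the drugs, edgeR called 7 members with all 44 libraries, 7 when thinned to the lowest depth and 1 once GC and length trends were removed, and limma called 14. Over all genes, limma called 2546 for enzalutamide minus vehicle and 5605 between the drugs. Thinning left 654, 2349 and 1900 genes called for enzalutamide against vehicle, ARN-509 against vehicle and the drugs against each other, and removal of the trend left 903 between the drugs. Leaving out 1 library gave 6 to 11, 6 to 10 and 8 to 13 members and 1170 to 1829, 3292 to 5095 and 2634 to 4260 genes in these comparisons; the 10 members with ARN-509 came without vehicle 10. With library totals as the scaling, 857 genes were higher and 622 lower with enzalutamide (656 and 824 with TMM), and 2733 and 1473 with ARN-509 (1940 and 2276 with TMM). Without vehicle 8 and vehicle 10, a setting chosen after seeing the data, 8, 9 and 12 members were called. Same-numbered tumors had no general tendency to deviate together (41 pairs, r of -0.309 to 0.570, median 0.0096, 13 over 0.1), so the numbers were not taken as pairs. The tumors numbered 10 did deviate together, with r of 0.443 for vehicle with enzalutamide, 0.570 for vehicle with ARN-509 and 0.207 between the drugs. With the replicate block 7, 9 and 11 members and 1226, 4145 and 3226 genes were called. The causes of these shifts were not tested, beyond the smaller depth that thinning sets.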
